A study of Mus musculus with 6 samples.

Results

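The cytosolic ribosomal protein genes were read out in RNA of articular cartilage taken from the knees of mice aged 10 weeks, in 3 control libraries (CTRL1 to CTRL3, genotype labelled WT) and 3 adseverin knockout libraries (CKO1 to CKO3). The genes were taken by symbol: protein-coding genes named Rpl or Rps with a number, together with Rplp0, Rplp1, Rplp2 and Rpsa, without the Rps6k kinases, pseudogene names ending in -ps and genes with fewer than 6 reads in total. Of 55401 genes in the count table, 82 met this rule. By symbol, 50 were assigned to the large subunit (Rpl) and 32 to the small subunit (Rps), paralogs included. Rpl10l, a retrogene copy of Rpl10, was left out with 0 reads. Both groups had received tamoxifen on 5 days from 8 weeks of age, each dose 1.5 mg for every 10 g of body weight. No label names the promoter that drove Cre or which exons were removed. The samples are numbered in the labels but not tied to separate mice, so each p-value rests on the variation among these libraries, part of which may be technical.

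A cytosolic ribosome is built of a small subunit, which binds mRNA and decodes it, and a large subunit, which joins the amino acids. Each ribosomal protein is normally present in one copy per ribosome (the stalk proteins P1 and P2, made from Rplp1 and Rplp2, are the exception), and vertebrate cells produce the proteins at matched rates. Many of their mRNAs begin with a cytosine followed by a run of pyrimidines, the terminal oligopyrimidine (TOP) tract, through which the kinase complex mTORC1 and the RNA-binding protein LARP1 control translation. Chondrocytes make large amounts of secreted matrix and depend on this machinery.

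The start of the transcript is shown first, because it is the feature these genes are best known to share. RefSeq entries (GRCm38.p6) were found for 62 of 82 genes. A cytosine followed by at least 4 pyrimidines stood exactly at the annotated start in 13 of 62 genes (21.0%), against 3.01% of 27025 genes with an entry, and within 3 bases of it in 25 of 62 (40.3%), against 13.5%. Windows of 30 bases around the start, written on the strand of the gene, are given for genes discussed below, with the tract in capitals:
Rps18, chr17:33955651-33955680, minus strand: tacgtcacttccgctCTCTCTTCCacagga
Rps6, chr4:86857353-86857382, minus strand: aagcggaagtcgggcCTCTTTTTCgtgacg
Rps27, chr3:90213634-90213663, minus strand: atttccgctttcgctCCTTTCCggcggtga
Rps10, chr17:27635230-27635259, minus strand: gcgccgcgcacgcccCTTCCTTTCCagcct
Rplp2, chr7:141447636-141447665, plus strand: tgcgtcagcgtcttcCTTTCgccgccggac
Rpl35a, chr16:33056467-33056496, plus strand: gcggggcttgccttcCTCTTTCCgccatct
Rpl22l1, chr3:28805493-28805522, plus strand: gtgcggcgcaagcccgttCTCTTCCCacgg
Rps27l, chr9:66946071-66946100, plus strand: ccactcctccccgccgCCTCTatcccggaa
In Rps18, Rps6, Rps27, Rps10, Rplp2 and Rpl35a the tract began at the annotated start, and in the paralogs Rpl22l1 and Rps27l it began 3 bases and 1 base after it. Rpl35a has 3 annotated starts and Rps27l 2, and only the start shown has a tract. No tract lay within 3 bases of the annotated start of Rplp0, Rps13 or Rpl9, which says only that these letters are not at that place in the RefSeq model.

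A second shared element was the core of the site bound by ETS-family factors such as GABP, CCGGAA. Read on both strands over the 300 bases from 250 before to 50 after the start, it was present in 35 of 62 genes (56.5%), against 16.7% of all genes with an entry. The GC box GGGCGG was present in 61.3% (38.2% of all), the TATA box letters TATAAA in 11.3% (15.7%), the E-box CACGTG in 9.68% (8.09%) and the YY1 core AAGATGGC in 9.68% (3.19%). A GC box and an ETS core can lie in the same promoter, so these shares are not additive. Rps19 has several annotated starts, and the core given for it below lies at -30 from the most downstream of them. The core is shown in capitals for 4 genes named below, in the orientation CCGGAA on the strand of the gene:
Rpl26, chr11:68901558-68901587, plus strand: caacttacagaaCCGGAAgtcgcgtgtagt
Rps19, chr7:24884871-24884900, plus strand: tgagtgggacgcCCGGAAcgtgggcttgag
Rps18, chr17:33955723-33955752, minus strand: gagaagcaatttCCGGAAgtggacctccgg
Rps3a1, chr3:86142660-86142689, minus strand: agattcttaaagCCGGAAgggcgaaagagc
In these data, genes with a tract near the start had a median log2 fold change of -0.12 (25 tested), and those without had -0.13 (35 tested), a description of the CKO minus CTRL difference given next.

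Libraries held 22664828 to 31014996 reads. The targeted gene Scin measured 185 to 219 CPM (read counts scaled to library size with TMM factors) in CTRL and 29.4 to 39.1 CPM in CKO, so each library matched its label. Cartilage markers were abundant in every library, the 15 chondrocyte genes summing to 54848 to 58008 CPM in CTRL and 61072 to 65732 CPM in CKO. Osteoblast genes summed to 33707 to 40921 CPM, fibroblast genes to 13472 to 18292 CPM, erythroid genes to 2772 to 4433 CPM and neutrophil genes to 1156 to 2859 CPM over the 6 libraries, so RNA of other cells was present. Skeletal muscle markers stood apart in 1 library, summing to 1690.2 CPM in CTRL2 and 44.4 to 291 CPM in the others.

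Ribosomal protein genes took a small share of the reads, and that share varied as much among control libraries as between the groups. All 82 genes together received 0.724%, 0.807% and 0.857% of reads in CTRL1, CTRL2 and CTRL3 and 0.707%, 0.700% and 0.771% in CKO1, CKO2 and CKO3. The 95% Wilson interval of each share was at most 0.0037 percentage points to either side, which covers counting error only. CKO3 therefore lay above CTRL1, and the groups overlapped. The means were 0.796 ± 0.067% (SD, n = 3) in CTRL and 0.726 ± 0.039% (SD, n = 3) in CKO, a difference of -0.070 percentage points that was about the size of the control SD. The small subunit supplied 40.2% to 41.9% of these reads in CTRL and 40.4% to 41.0% in CKO, so the balance between the subunits did not move beyond the spread of the libraries.

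The ribosomal protein genes lay slightly lower in CKO in near unison, yet no gene passed the test. Of 82 genes, 79 had enough reads to be tested, and 75 of those 79 (94.9%) had a log2 fold change (CKO minus CTRL) below 0, against 49.4% of all 16260 genes tested. The median was -0.13, which is 8.31% fewer reads, against 0.00 for all genes, and 72 genes lay between 0 and -0.25. With edgeR's quasi-likelihood test, 0 of 79 passed a Benjamini-Hochberg adjusted p of 0.05 (0.00615% of all genes did; the 1 gene was Scin), the smallest adjusted p being 0.715. At an unadjusted p under 0.05 there was 1 gene, Rps13, lower in CKO, where 2.96% of all genes were lower at that level and 6.5% differed in either direction. DESeq2 also passed 0 of the 82 (0.443% of all genes), with 2 at an unadjusted p under 0.05 and a smallest adjusted p of 0.545. The SE of a single gene had a median of 0.12 on the log2 scale, as large as the median difference. The members move together within a library and are not replicates of the condition, so the count of 75 is a description.

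**Figure D1:**
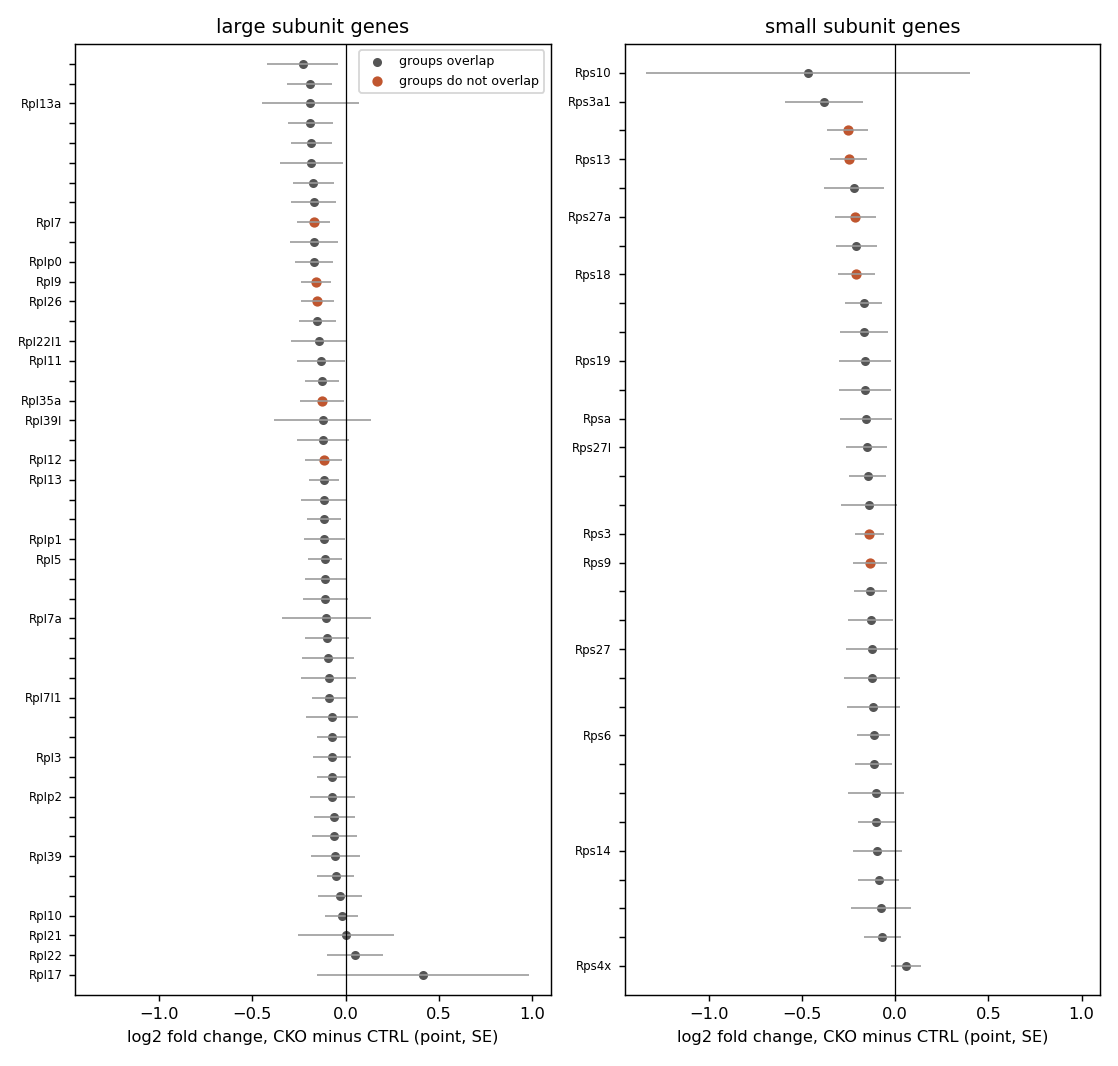
Log2 fold change (x axis, CKO minus CTRL, point with SE) of the 79 tested ribosomal protein genes, large subunit on the left and small subunit on the right, from 3 libraries a group. Nearly all points lie left of 0, with 72 genes between 0 and -0.25, and the 11 orange points are genes whose groups do not overlap; names are given for genes described in the text.

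The size of the difference depended on which libraries were compared. Each gene was set against its own mean over the 6 libraries on the log2 scale, and the median of the 79 genes was -0.09, 0.09 and 0.18 in CTRL1, CTRL2 and CTRL3, and -0.10, -0.09 and 0.02 in CKO1, CKO2 and CKO3. CTRL1 thus stood with CKO1 and CKO2 and not with the other controls. It was the lowest of the 3 controls in 72 of 79 genes, and it lay above all 3 CKO libraries in 16 genes, compared with 54 genes for CTRL2 and 65 for CTRL3. CTRL3 was the highest of all 6 libraries in 54 genes, and CKO1 was the lowest in 30. The SD of the library medians within CTRL was 0.141, larger than the group difference. Without CTRL1 the median log2 fold change was -0.208, and 51 genes had groups that did not overlap, all lower (11.6% of all genes did so as lower in that comparison). Without CTRL3 it was -0.073 and without CKO3 -0.164, with 26 genes apart as lower and 1 as higher (10.8% of all genes as lower). In none of these did a ribosomal protein gene pass the threshold. What sets CTRL1 apart from the other controls was not tested; the same median over all genes tested was 0.01 to 0.02 in each library.

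**Figure D2:**
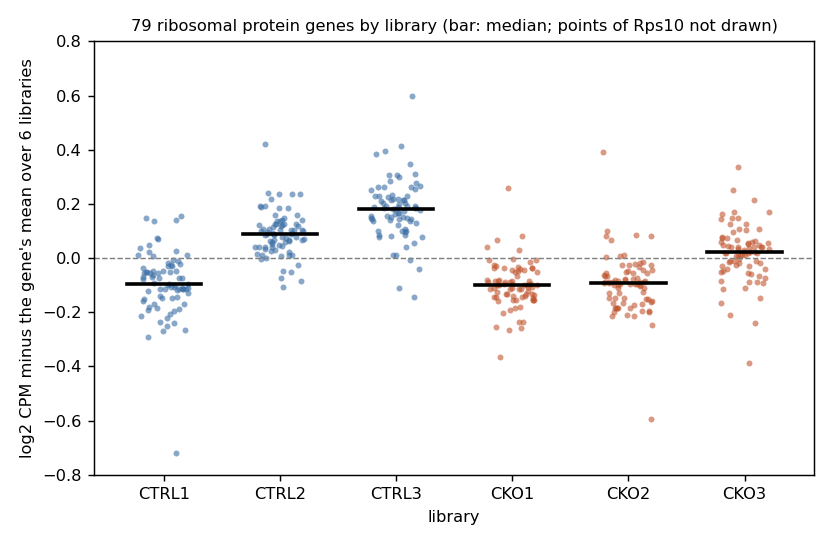
Log2 CPM of each ribosomal protein gene minus its own mean over the 6 libraries (y axis) in each library (x axis), with the median of 79 genes as a bar; Rps10, which spreads far more widely, is in the median but not drawn. The medians are -0.09 in CTRL1, 0.18 in CTRL3 and -0.10 in CKO1, so the genes of one library shift together and CTRL1 sits level with CKO1 and CKO2.

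The groups did not overlap in 11 of 79 genes (13.9%), each lower in CKO, where 5.89% of all genes were separated in that direction and 6.41% in the other (12.3% in either). Among them were Rps3, Rps9, Rps13, Rps18, Rps27a, Rpl7, Rpl9, Rpl12, Rpl26 and Rpl35a. Rps13, a protein of the small subunit near the platform (GRCm38 chromosome 7, 116331505 to 116334195), measured 76.2, 77.4 and 84.2 CPM in CTRL and 67.3, 61.1 and 71.7 CPM in CKO. All 3 controls were higher than all 3 knockouts, with a log2 fold change of -0.25 ± 0.10 (SE; edgeR adjusted p = 0.715). Rps18, which lies on the small subunit head and carries one of the tracts shown above, measured 97.8, 117 and 117 CPM in CTRL and 93.2, 96.2 and 97.7 CPM in CKO (-0.21 ± 0.10, edgeR adjusted p = 0.785). In Rps3 and Rps9 CTRL1 was level with the highest CKO library at the digits printed, at 243 and 246 CPM. For Rps18 the gap between the groups was narrow, since CTRL1 was just above CKO3. Rps27a encodes a small subunit protein fused to ubiquitin, and it measured 37.1, 41.0 and 37.8 CPM in CTRL and 34.8, 32.8 and 32.4 CPM in CKO (-0.21 ± 0.11).

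Rpl7 and Rpl9 were the large subunit genes with the smallest p-values. Rpl7 measured 141, 146 and 156 CPM in CTRL and 129, 125 and 140 CPM in CKO, so that CTRL1 and CKO3 were almost level. Rpl9, whose protein lies at the base of the stalk region, measured 152, 172 and 165 CPM in CTRL and 144, 149 and 145 CPM in CKO. Their log2 fold changes were -0.17 ± 0.09 and -0.16 ± 0.08. In fits that left out 1 library, the log2 fold changes of Rps13, Rps18, Rps27a, Rpl7 and Rpl9 ranged between -0.30 and -0.13. The groups did not overlap in any of these genes, so leaving out 1 library could hardly turn the sign.

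The 4 genes with a log2 fold change above 0 were Rpl17, Rps4x, Rpl22 and Rpl21. Rps4x, the X-linked gene of a small subunit protein, measured 93.4, 99.7 and 101 CPM in CTRL and 106, 96.7 and 103 CPM in CKO. It had a log2 fold change of 0.06 ± 0.08, and the groups overlapped. Rpl22 measured 50.4, 55.7 and 46.5 CPM in CTRL and 42.9, 53.9 and 61.2 CPM in CKO, with CKO1 the lowest library and CKO3 the highest. Its log2 fold change was 0.05 ± 0.15 and turned to -0.07 without CKO3 and -0.01 without CTRL3. Rpl21 stood at 0.00 ± 0.26 and Rpl17, with 12 to 28 reads a library, at 0.42 ± 0.57. At the other end, Rps10 (-0.47 ± 0.87) and Rps3a1 (-0.38 ± 0.21) were furthest below 0; Rps3a1 is named after its values were seen. Rps10 had 54, 39 and 3 reads in CTRL and 17, 35 and 19 in CKO, and its fold change was 0.30 with limma-voom. Rps3a1, a small subunit protein at the mRNA exit side, measured 129, 144 and 209 CPM in CTRL and 142, 91.3 and 136 CPM in CKO, so CTRL3 was high, CKO2 low and the other 4 libraries close together.

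By place in the ribosome, the medians of the groups ran from -0.14 to -0.05. The P stalk recruits translation factors to the large subunit; its proteins come from Rplp0, Rplp1 and Rplp2. Rplp0 measured 312, 405 and 379 CPM in CTRL and 313, 325 and 337 CPM in CKO, with CTRL1 at the level of CKO1 (-0.17 ± 0.10). Rplp1 measured 87.0, 105 and 109 CPM in CTRL and 86.3, 94.6 and 96.8 CPM in CKO, and Rplp2 62.1, 71.1 and 74.4 CPM in CTRL and 63.4, 59.7 and 74.5 CPM in CKO. Rplp0, often used as a reference gene in qPCR, thus spread further among the controls than between the groups, and Rplp1 and Rplp2 had log2 fold changes of -0.12 ± 0.11 and -0.07 ± 0.12. Rpl12, which binds at the base of the stalk, had -0.12 ± 0.10. Rpl5 and Rpl11, which with an RNA of the large subunit form the particle that restrains the p53 ligase MDM2, had log2 fold changes of -0.11 ± 0.09 and -0.13 ± 0.13. Rpl5 measured 82.3, 83.0 and 86.6 CPM in CTRL and 75, 75.7 and 82.7 CPM in CKO, and Rpl11 56.2, 72.9 and 72.8 CPM in CTRL and 57.8, 57.8 and 68.6 CPM in CKO. The 5 genes of the mRNA entry and decoding sites (Rps2, Rps3, Rps9, Rps15 and Rps23) were all below 0 with a median of -0.14. The ring around the exit of the peptide tunnel (Rpl17, Rpl19, Rpl22, Rpl23a, Rpl26, Rpl31, Rpl35 and Rpl39) had 7 tested genes, 5 of them below 0, and a median of -0.05.

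Genes mutated in Diamond-Blackfan anaemia, an inherited failure of red cell production, were all below 0 (18 of 18, median -0.14). Of all 79 tested ribosomal protein genes, 94.9% were below 0, with a median of -0.13. The lowest of the 18, Rps10 (-0.47 ± 0.87), was at 0.30 with limma-voom and 0.04 with sample number as a block. In edgeR 0 of the 18 passed the threshold and 0 had an unadjusted p under 0.05. The groups were apart in 2, Rpl26 and Rpl35a, where 5.89% of all genes were apart as lower. Rps19, the gene mutated most often in that disease, measured 182, 233 and 263 CPM in CTRL and 199.8, 185 and 221 CPM in CKO (-0.16 ± 0.14). In the same libraries the 11 erythroid markers were all above 0 (median 0.66). The part of erythroid RNA in the shift of the ribosomal protein genes was not tested. Rps6, the small subunit protein phosphorylated by the S6 kinases, measured 135, 153 and 157 CPM in CTRL and 133, 134 and 144 CPM in CKO (-0.12 ± 0.09). Rpsa, also known as a laminin receptor, measured 45.4, 58.3 and 53.8 CPM in CTRL and 43.3, 43.5 and 54.7 CPM in CKO (-0.16 ± 0.14). In Rps19, Rps6 and Rpsa alike, CTRL1 was the lowest control and the groups overlapped.

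Per length of transcript the genes spanned more than 3 orders of magnitude, although most of these proteins occur in equal number in a ribosome. The 82 genes include paralogs such as Rpl3l, to which this does not apply. Reads per kilobase of the principal transcript, scaled to depth as CPM (RPKM), had a median of 102 over the 82 genes, and 44 genes were at 100 RPKM or more. The highest were Rps14 at 552 RPKM (454 to 648 over the 6 libraries), Rps27 at 384, Rps19 at 338, Rps9 at 337 and Rpl13 at 335. Rps14 measured 271, 387 and 363 CPM in CTRL and 296, 329.9 and 329.7 CPM in CKO. The order of Rps19, Rps9 and Rpl13 cannot be told from these libraries, since their ranges overlapped. The lowest were Rpl23a at 0.375 RPKM, Rpl24 at 0.377, Rpl3l at 0.464, Rpl17 at 0.931 and Rps10 at 2.16, followed by Rpl13a, Rpl7a and Rpl21 at 6.26, 6.28 and 7.16. Rpl23a had 3 to 8 reads per library and Rpl24 2 to 9, and neither was tested.

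Shared sequence and overlapping annotation were measured for each gene, because a read that fits several places may not be counted. Of the 50-base windows of a gene's principal transcript, a median of 58.7% also occurred in a transcript of another gene, mostly processed pseudogenes, and 79 of 82 genes had at least 1 such window. Rpl3l and Rpl39l were among the 3 with none. Rpl7a shared windows with 120 annotated pseudogenes, Rpl21 and Rpl29 with 81 each, Rps2 with 71 and Rpl17 with 50. On the same strand, exons of a readthrough or other gene covered 91.6% of Rps10 (RPS10-NUDT3, listed at 0 reads), 71.5% of Rpl24 (Gm28037, 0 reads) and 59.3% of Rpl13a (Gm45713, 0 reads), and on the other strand exons of Tlcd1 covered 55.4% of Rpl23a. The library kit does not mark strand. Over all 82 genes, 5 were covered by another gene on either strand over more than 50% of their exons, 4 of them among the 8 lowest, and 5 shared windows with 50 or more pseudogenes, 3 of them among the 8 lowest. The exceptions were Rpl35, covered over 68.3% at 194 RPKM, and Rps2 and Rpl29 at 38.9 and 25.8 RPKM, while Rpl3l was low with neither property. These counts depend on the cuts, since Rpl17 stood exactly at 50 pseudogenes. Rps16, Rpl23 and Rps20 shared windows with 89, 68 and 50 other genes, of which 6, 4 and 4 were pseudogenes. They stood at 50.1, 59.5 and 13.9 RPKM, outside the 8 lowest. The value of Rps20 was taken over a principal transcript of 3706 bases, the longest of the 82 (median 705). Genes with many shared windows also stood high, such as Rps27 with 98.6% at 384 RPKM and Rpl3 with 85.6% at 237 RPKM. Across the 82 genes, Spearman's rho with RPKM was -0.12 for the share of 50-base windows, -0.21 for 100-base windows and -0.29 for the number of pseudogenes, a description across genes of the same 6 libraries. The deposited levels of ribosomal protein genes are therefore uncertain between genes. The part of mapping, counting and the choice of transcript in the RPKM values was not tested. By share of 50-base windows, the median log2 fold change was -0.12, -0.12, -0.14 and -0.12 in genes with under 25%, 25 to 50%, 50 to 75% and at least 75% shared. The number of pseudogenes and the overlap of exons were not set against the difference between the groups.

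**Figure D3:**
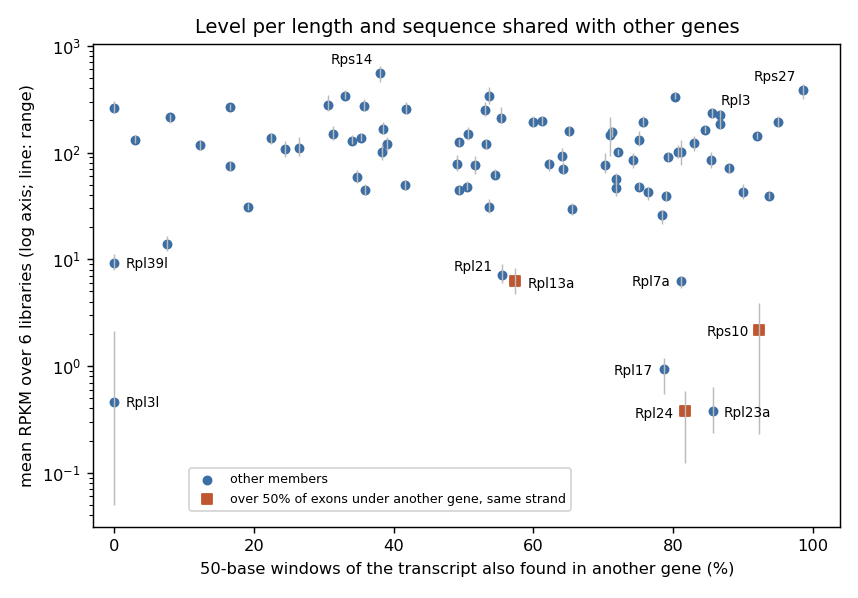
Mean RPKM over the 6 libraries (y axis, log scale, line from lowest to highest library) against the percentage of 50-base windows that also occur in another gene (x axis) for 82 ribosomal protein genes; squares are genes with over 50% of exons under another gene on the same strand. The line of Rpl3l is drawn down to 0.05 because it had 0 reads in CTRL3; Rps27 and Rpl24 both share most windows and stand at 384 and 0.377 RPKM.

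Several ribosomal protein genes have a paralog, and some of these paralogs are tissue-restricted. Rpl3l replaces Rpl3 in skeletal and heart muscle. It had 6, 66 and 0 reads in CTRL1, CTRL2 and CTRL3 and 6, 10 and 3 in CKO1, CKO2 and CKO3, so CTRL2 held more of it than the other 5 libraries together. In CTRL2 it was 0.839% of the reads of Rpl3l and Rpl3 together (95% Wilson interval 0.660 to 1.07%). Elsewhere it was at most 0.0971% (0.0528 to 0.179%), and the 0 reads in CTRL3 allow a share of up to 0.0325%. The 11 skeletal muscle markers summed to 75.4, 1690.2 and 44.4 CPM in CTRL and 227, 291 and 44.7 CPM in CKO, so CTRL2 was the highest library for both, followed by CKO2 and CKO1. Rpl3 itself measured 292, 342 and 351 CPM in CTRL and 287, 339 and 311 CPM in CKO. In bulk tissue, more muscle fibres and more transcript per fibre cannot be told apart.

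**Figure D4:**
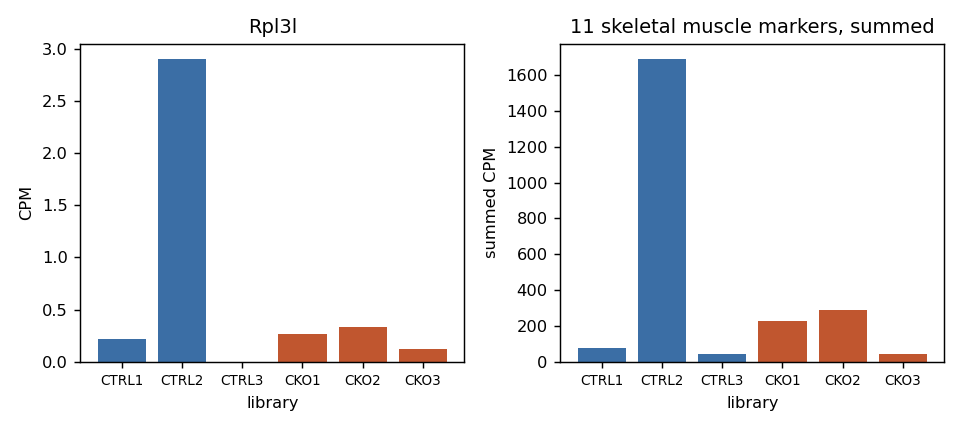
CPM of Rpl3l (left) and summed CPM of the 11 skeletal muscle markers (right) in each of the 6 libraries, bars from 0, CTRL in blue and CKO in orange. CTRL2 is the highest bar in both panels, at 2.90 CPM and 1690.2 CPM.

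The other copies were spread more evenly. Rpl39l, best known from the testis, measured 4.45, 5.22 and 6.19 CPM in CTRL and 4.91, 4.35 and 5.32 CPM in CKO, making up 10.1 ± 1.29% (SD, n = 3) of the Rpl39 and Rpl39l reads in CTRL and 9.71 ± 0.495% in CKO. Rpl39, which lines the peptide tunnel, measured 42.5, 51.3 and 47.3 CPM in CTRL and 42.9, 41.5 and 51.4 CPM in CKO. Rpl22l1, whose level is restrained by Rpl22 in other cells, measured 15.6, 16.8 and 18.6 CPM in CTRL and 15.2, 14.4 and 16.6 CPM in CKO. Its share of the pair was 25.1 ± 2.95% in CTRL and 22.8 ± 2.84% in CKO. CKO3 had the highest Rpl22 of the 6 libraries, and CTRL3 the highest Rpl22l1. However, CKO1 had the lowest Rpl22, at 42.9 CPM, and less Rpl22l1 than CKO3. A relation between the levels of these genes was not tested. Rps27l, a p53 target in human cells, measured 65.4, 75.9 and 77.0 CPM in CTRL and 60.5, 65.7 and 69.9 CPM in CKO, against 109, 153 and 153 CPM and 121, 122 and 136 CPM for Rps27, and made up 34.7 ± 2.37% and 34.1 ± 0.832% of the pair. Rpl7l1, a relative of Rpl7 whose yeast counterpart acts in ribosome assembly, measured 151, 156 and 172 CPM in CTRL and 149, 163 and 137 CPM in CKO, about as much as Rpl7. For Rpl39l, Rpl22l1, Rps27l and Rpl7l1 the group difference in share was smaller than the SD of at least one group. Rpl10 measured 108, 117 and 121 CPM in CTRL and 108, 108 and 125 CPM in CKO, and the 0 reads of Rpl10l allow at most 0.0911 to 0.123% of the pair's reads per library.

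Rps4l lay in the other direction. This copy of Rps4x is annotated as a transcribed processed pseudogene, so it was not among the 82 genes, and as a near copy of Rps4x its counts are uncertain. It measured 12.9, 15.8 and 16.8 CPM in CTRL and 17.6, 20.7 and 21.1 CPM in CKO, with all 3 knockouts above all 3 controls. The log2 fold change was 0.39 ± 0.17 (edgeR adjusted p = 0.752) and lay between 0.28 and 0.47 when any 1 library was dropped. With the groups apart, dropping 1 library could hardly turn its sign. Its share of the Rps4x and Rps4l reads ran from 12.1% (95% Wilson interval 11 to 13.3%) to 14.3% (13.1 to 15.5%) in CTRL and from 14.3% (13.0 to 15.6%) to 17.6% (16.4 to 18.9%) in CKO.

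Some genes outside the naming rule also supply proteins of the ribosome, and none passed the test in edgeR. Rack1, a scaffold on the small subunit head, measured 164, 162 and 164 CPM in CTRL and 150.2, 144 and 149.6 CPM in CKO, so the groups did not overlap and the spread within them was small (-0.15 ± 0.07, edgeR adjusted p = 0.803). Fau, which encodes a ubiquitin-like protein fused to a small subunit protein, measured 61.5, 70.2 and 83.0 CPM in CTRL and 61.4, 60.7 and 74.6 CPM in CKO (-0.13 ± 0.14). Rpl36al, a copy of Rpl36a, had 0.01 ± 0.22.

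The rest of the translation machinery was examined by list, and 0 genes of these lists passed the threshold in edgeR. A list of 14 genes, mostly translation factors, was taken as carrying a TOP tract, and 11 lay under 0 (median -0.07). It also held Hnrnpa1, Nap1l1, Npm1 and Tpt1, and the tract was not read out gene by gene in this list. At an unadjusted p under 0.05, 1 of the 14 was lower (2.96% of all genes). The groups were apart in 5, Tpt1 among them, all lower (5.89% of all genes). Eif3e, a subunit of the initiation factor eIF3, measured 99.1, 98.0 and 106 CPM in CTRL and 82.1, 90.8 and 84.1 CPM in CKO (-0.24 ± 0.09, edgeR adjusted p = 0.700). Eif3f, of the same complex, had -0.19 ± 0.08, and its groups did not overlap. Eef1a1, the elongation factor that delivers tRNA, is named after its values were seen and measured 931, 977 and 1037 CPM in CTRL and 956, 974 and 885 CPM in CKO (-0.06 ± 0.08). Of 49 genes for ribosome biogenesis, 31 were below 0 (median -0.09) and 2 were lower at an unadjusted p under 0.05, where 2.96% of all genes were. These were Nhp2 and Dkc1, which encode partners in the particle that makes pseudouridine in ribosomal RNA, at -0.34 ± 0.11 and -0.25 ± 0.09 with groups that did not overlap. Nhp2 measured 39.5, 42.9 and 43.8 CPM in CTRL and 33.4, 33.7 and 32.2 CPM in CKO. In Nhp2 and in Rack1 CTRL1 stood with the other controls. Their groups did not overlap, so CTRL1 had to lie above all 3 CKO libraries, as it did in 16 of 79 ribosomal protein genes.

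Mitochondrial ribosomal proteins, which are encoded by a separate gene set, had 59 of 77 tested genes below 0 (76.6%) and a median of -0.10. Mrpl49 and Mrpl17, with the smallest p-values of that list, had -0.32 ± 0.13 and -0.21 ± 0.09. Genes of mTORC1 and cap binding had 7 of 16 below 0 and a median of 0.05, with 0 at an unadjusted p under 0.05 in edgeR. Rps6kb1, the kinase that phosphorylates Rps6, measured 94.1, 83.5 and 87.5 CPM in CTRL and 107, 109.7 and 87.6 CPM in CKO (0.20 ± 0.11). Eif4ebp2, an inhibitor of cap binding, had 0.29 ± 0.17, and in both genes the groups overlapped. Whether the cytosolic ribosomal protein genes differ from the mitochondrial ones in their shift was not tested.

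**Figure D5:**
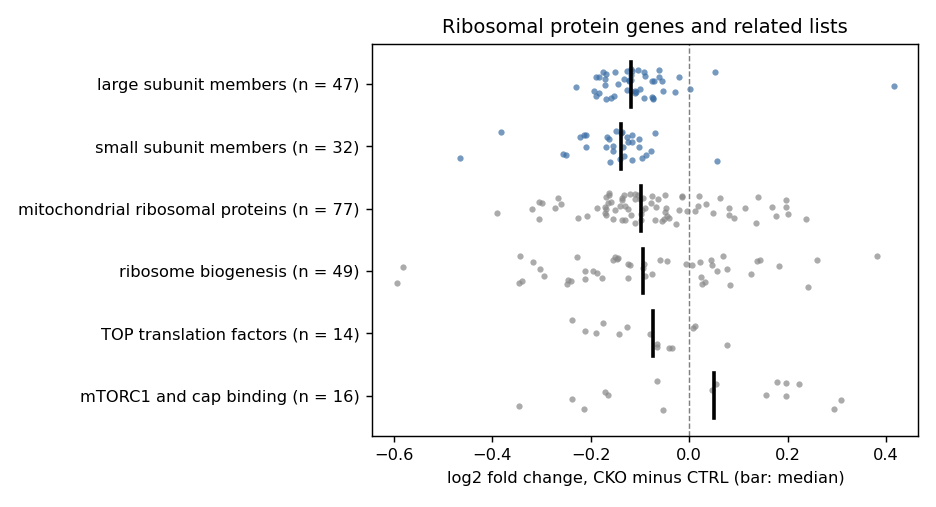
Log2 fold change (x axis, CKO minus CTRL) of each tested gene in the large and small subunit sets and in 4 related lists (y axis), with the median as a bar. The cytosolic genes cluster around -0.12 and -0.14, the mitochondrial ribosomal proteins and ribosome biogenesis genes spread more widely around -0.10 and -0.09, and the mTORC1 list has a median of 0.05.

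Short transcripts of other genes also lay lower in CKO. Among protein-coding genes other than these, the median log2 fold change was -0.09 for 105 genes with a principal transcript under 500 bases, -0.05 for 850 genes from 500 to 1000 bases, -0.02 from 1000 to 2000 bases and 0.01 above that. Ribosomal protein genes of the same lengths had medians of -0.14 (18 genes), -0.12 (43 genes) and -0.12 (16 genes). The part of transcript length in their shift was not tested. Among marker lists, 9 of 9 macrophage genes were below 0 (median -0.29; 611 to 781 CPM summed in CTRL and 503 to 577 CPM in CKO), 6 of 7 fibroblast genes were below 0 (median -0.49) and 13 of 15 chondrocyte genes were above 0 (median 0.22). Below 0 were also 10 of 10 tested skeletal muscle genes (median -1.45), 6 of 6 tested adipocyte genes (-1.36; 163 CPM summed in CTRL2 and 19.7 to 83.5 CPM in the others), 5 of 5 B cell genes (-0.20) and 4 of 6 endothelial genes (-0.32). Above 0 were 11 of 11 erythroid genes (0.66), 9 of 10 neutrophil genes (0.38) and 8 of 10 osteoblast genes (0.24). In bulk tissue, fewer cells of a type and less RNA per cell cannot be told apart, and the part of these cells in the ribosomal protein shift was not tested.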

How the data were processed

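RNA was measured in 6 cartilage libraries made with the SMART-Seq v4 kit, per the labels' protocols. The authors deposited raw read counts per gene. Tools listed in the submitters' processing notes are HISAT2 (2.2.1) and featureCounts (2.0.1), with FastQC (0.11.9), DESeq2 (1.30.1) under R (4.0.5), and the genome build is GRCm38. Not given in the sources used are the annotation release, strand setting, read length and treatment of reads with several matches. A deposited table of normalized values was not used.

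Counts were filtered with filterByExpr, scaled with TMM factors and tested with edgeR 4.0.16 (R 4.3.3; quasi-likelihood F test, 3 CKO against 3 CTRL, Benjamini-Hochberg adjustment over all 16260 genes, threshold 0.05). Alternatives used DESeq2 1.42.0, limma-voom (limma 3.58.1), other scalings and filters, a replicate block and each library left out. With 3 libraries a group, the smallest p of an exact permutation test is 0.1. Counts were simulated with 200 of 16260 genes, drawn at random, changed in each of 10 sets. The edgeR step recovered 11.3% of genes changed 1.5-fold, 42.6% changed 2-fold and 67.7% changed 4-fold, with 7.93% of calls false. Genes were simulated independently, so these rates do not describe the ribosomal protein genes or a common shift smaller than 1.5-fold. Within-group pairs of libraries differed beyond sampling noise (chi-square per degree of freedom 31.4 to 36.5), so none was a repeat deposit.

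Lengths and 50-base windows came from the GENCODE transcripts, with the shortest principal transcript of each gene. Promoters came from RefSeq GRCm38.p6. Named by rule were up to 6 genes with the smallest p in each direction and the 5 highest and 5 lowest per length. The paralogs and their parents, selected well-known genes, and the 2 smallest p-values of each related list were also named. Values per library are given for many of these. For others, such as Rpl13, Rpl17, Rpl21, Rpl23a and Rpl24, only a range or a summary value is given. The members and lists were chosen with earlier results of these data known. Results for some genes are not reported here.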

Additional observations from a re-analysis of the deposited data

How the results depend on the processing

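No ribosomal protein gene passed the threshold under any of the alternatives run. Their median log2 fold change stayed between -0.132 (DESeq2) and -0.116 (limma-voom) over other scalings, filters and tools, and between -0.208 (without CTRL1) and -0.073 (without CTRL3) with single libraries left out, when 62 to 77 of 79 genes were below 0. It was -0.117 in genes with under 50% of windows shared, an alternative chosen after seeing the data. The share of reads differed by -0.1059 to -0.0393 percentage points with single libraries left out. Over all genes, the number past the threshold was 1 in edgeR, 3 with no filter on low counts, 82 with DESeq2, and 1 to 2 with single libraries left out. Ribosomal protein genes with groups that did not overlap numbered 11 to 51 with single libraries left out. Without CTRL1 there were 51, all lower, where 11.6% of all genes were apart as lower. Without CKO3 there were 26 lower and 1 higher, where 10.8% of all genes were apart as lower. With all 6 libraries that share was 5.89%, and it was not computed for the other fits.

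Sample numbers gave no clear pairing of the libraries. Same-numbered deviations correlated at -0.0193, 0.0712 and 0.0235, and those of different number at -0.068 to 0.0503. CTRL2 and CTRL3 correlated best with the CKO library of their own number, and CTRL1 with CKO3 (0.0503). With the replicate block the median was -0.118, 75 genes were below 0, 0 passed and 1 gene of all passed. The block gave Rpl21 -0.01 and Rps10 0.04, on the other side of 0 from the values reported.

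Rpl21, at 0.0022, was also below 0 with RLE factors (-0.0035), library totals alone (-0.0021), no filter (-0.0038), at least 1 CPM in 3 libraries (-0.0003), DESeq2 (-0.0046) and limma-voom (-0.01), and Rps10 was at 0.30 with limma-voom. With single libraries left out, signs also turned for Rpl21 (-0.19 to 0.13), Rpl39 (-0.15 to 0.0049), Rpl10 (-0.09 to 0.02), Rpl22 (-0.07 to 0.18) and Rpl39l (-0.24 to 0.01), for the medians of the mTORC1 list (-0.015 to 0.091) and the other subunit genes (-0.136 to 0.021), and for the share differences in percentage points of Rpl3l (-0.379 to 0.0401), Rpl7l1 (-0.317 to 3.28), Rpl39l (-0.823 to 0.357) and Rps27l (-1.42 to 0.683). The cause was not tested. Depth was lowest among the tested ribosomal protein genes for Rpl17, at 12 to 28 reads a library.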
